A study of Mus musculus with 12 samples.

Results

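The comparison described here is AE1-329 added to Aβ42. It sets 3 arrays of microglia given both agents against 3 arrays of microglia given Aβ42 alone, 6 of the 12 arrays of the series, chosen by their treatment labels. Microglia are the resident macrophages of the brain. Cells of C57BL/6J pups at postnatal day 7 were selected with magnetic beads against CD11b, an integrin chain that monocytes and neutrophils also carry, and were kept in serum-containing medium for 3 days. The Aβ42 group received oligomeric Aβ42 at 10 µM with the ethanol vehicle of the agonist at 0.001%, and the combined group received the same Aβ42 with AE1-329 at 100 nM. Both lasted 6 h. The other 6 arrays, used below for reference levels and for the change without Aβ42, hold cells given the DMSO vehicle of Aβ42 at 0.4% with either ethanol or AE1-329. Each of the 4 groups has 3 arrays, and arrays with the same number come from 1 of 3 litters, so a replicate is the microglia of 1 litter of pups. The model is a short-term culture of early postnatal cells exposed for a single period.

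AE1-329 is an agonist of EP4, 1 of the receptors of prostaglandin E2. EP4 couples to the stimulatory G protein Gs, raises cyclic AMP and thereby activates protein kinase A and the exchange proteins EPAC, and the kinase phosphorylates CREB, which acts at the cAMP response element (CRE) of its target promoters. In macrophages and microglia cyclic AMP is known to restrain part of the inflammatory response while leaving or raising other parts. Oligomeric Aβ42 is the soluble aggregating form of the peptide that builds the plaques of Alzheimer's disease, and microglia sense it through pattern recognition receptors. The comparison asks which transcripts EP4 activation alters in cells that are already responding to Aβ42.

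Levels are log2 expression values as deposited, so 1 unit is a doubling, and a level of 1 gene cannot be set against that of another. A change is the difference of group means on the log2 scale ± the standard error of a limma fit over all 12 arrays, and a gene passed where its p, adjusted by Benjamini-Hochberg over 19938 genes, was at most 0.05. Array medians lay between 6.97 and 7.05. The median SD between the 3 arrays was 0.063 for Aβ42 alone and 0.066 for the combined group. In replicate 3 of Aβ42 alone 1 gene lay at least 1 unit above and 5 lay at least 1 unit below both other arrays, and in replicate 3 of the combined group 1 and 4 genes did so. Among the reference arrays, vehicle replicate 1 (18 genes above, 1 below), vehicle replicate 3 (1 above, 12 below) and replicate 3 of AE1-329 alone (16 above, 13 below) stood apart in more genes. The median SD was 0.109 in vehicle and 0.065 with AE1-329 alone.

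The cells were checked against marker lists, with signal over background unknown. The 11 measured markers that define microglia had a mean level of 11.09 to 11.13 with Aβ42 alone and of 10.93 to 10.98 with AE1-329 added. Of these markers Cx3cr1, the fractalkine receptor, fell by 0.95 ± 0.10 and Aif1, which encodes IBA1, fell by 0.49 ± 0.07. Itgam, the gene of CD11b itself, rose by 0.22 ± 0.05 (adjusted p = 0.0157). That call ended without replicates 1 or 3 of the combined group or replicates 2 or 3 of Aβ42 alone (adjusted p = 0.0564 to 0.0666). The mean level of the 12 astrocyte markers was 7.46 to 7.57 with Aβ42 alone and 7.45 to 7.61 with AE1-329 added. For the 11 oligodendrocyte lineage markers the ranges were 7.26 to 7.33 and 7.21 to 7.26, and for the 11 endothelial and mural markers 7.05 to 7.22 and 7.05 to 7.25. The 11 markers of monocytes and border macrophages lay at 6.97 to 7.06 and 7.00 to 7.07, and the 12 neutrophil markers at 6.23 to 6.35 and 6.24 to 6.34. Markers of other cells that passed were few. The astrocyte transporter Slc1a3 fell by 0.42 ± 0.11 (adjusted p = 0.0281, lost without any 1 of the combined arrays or replicates 2 or 3 of Aβ42 alone, up to 0.122). The pericyte and progenitor proteoglycan Cspg4 fell by 0.32 ± 0.09 (adjusted p = 0.042, lost without any 1 of the 6 arrays, up to 0.172). The vascular receptor Flt1 fell by 0.47 ± 0.06 and the adhesion molecule Pecam1, which leukocytes also carry, rose by 0.90 ± 0.08. The platelet chemokine Pf4, also made by border macrophages, rose by 0.36 ± 0.08 and lost its call without replicate 3 of the combined group (adjusted p = 0.0514) or replicate 1 of Aβ42 alone (0.053). By limma none of the 12 neuron, 12 neutrophil or 8 lymphocyte and erythroid markers passed, with 1, 3 and 0 of them at an unadjusted p under 0.05. In cultures measured in bulk, fewer cells of a type and less RNA per cell cannot be told apart.

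When AE1-329 was added to Aβ42, 2199 genes passed limma's test, 11.0% of those tested, of which 1194 rose (5.99%) and 1005 fell (5.04%). Most changes were small. The median size among the passing genes was 0.35 on the log2 scale, and 1813 of them, 82.4%, changed by less than 1.5-fold. Only 50 genes passed with a rise of at least 2-fold (0.251% of genes) and 36 with a fall of at least 2-fold (0.181%). The median change over all genes was -0.02. For 32.0% of genes the 3 arrays of the combined group lay all above or all below the 3 of Aβ42 alone. Without replicate 3 of Aβ42 alone the genes that fell numbered 669. A fit of only the genes above the median level called more from fewer genes, 1331 higher and 1023 lower. Among such genes the passing share was therefore above 11.0%. Many lists below hold mostly such genes, with 3 of 29 scavenger, 1 of 19 NRF2 and 1 of 37 cell cycle genes below that level. A list share somewhat above 11.0% is thus not particular to the list.

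**Figure D1:**
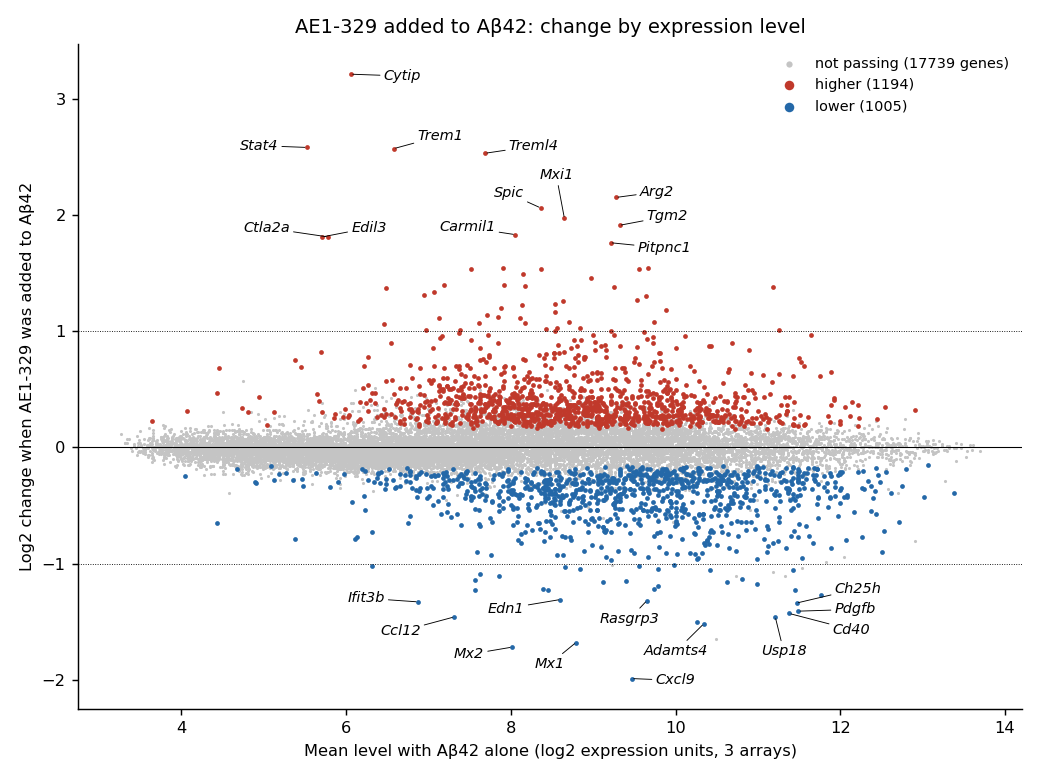
Each point is 1 of 19938 genes, with its mean level on the 3 arrays of Aβ42 alone on the x axis (log2 expression) and its change when AE1-329 was added on the y axis (log2). Red points are the 1194 genes that rose, blue points the 1005 that fell, grey points did not pass, dotted lines mark 2-fold, and the 12 genes that lead each direction by size, predicted genes aside, are named.

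The receptor pathway itself changed at several steps. Ptger4, the gene of EP4, read 9.03, 8.99 and 9.14 in the 3 arrays of Aβ42 alone and 8.44, 8.57 and 8.54 in the combined arrays. All 3 combined arrays lay lower, and the gene fell by 0.54 ± 0.07 (adjusted p = 0.000252). Ptger2, the gene of EP2, the other Gs-coupled receptor of prostaglandin E2, read 6.43, 6.41 and 6.62 against 7.03, 7.13 and 7.03. The groups did not overlap, and Ptger2 rose by 0.57 ± 0.09 (adjusted p = 0.000743). Ptges, which encodes the inducible synthase that makes prostaglandin E2, rose by 0.97 ± 0.11, from 11.60, 11.64 and 11.69 to 12.67, 12.57 and 12.62. Hpgd, the dehydrogenase that inactivates prostaglandins, fell by 0.64 ± 0.06, from 11.20, 11.32 and 11.22 to 10.47, 10.65 and 10.70. Ptgs2, the gene of cyclooxygenase-2, did not pass with the 12-array fit (-0.39 ± 0.23, adjusted p = 0.381), although its combined arrays (12.43, 12.24 and 12.26) lay below those of Aβ42 alone (12.73, 12.66 and 12.73). With only the 6 arrays in the fit it passed, and its adjusted p over the alternatives started at 0.00369. Of the 19 measured genes of prostaglandin reception, synthesis and breakdown 3 rose and 3 fell, 13 were short of the threshold, and the median change was 0.00. The passing share was 31.6% against 11.0% of all genes.

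Among 28 genes of cyclic AMP synthesis, protein kinase A, EPAC and phosphodiesterases 8 rose and 1 fell, a passing share of 32.1% against 11.0% of all genes, with a median of 0.07 (3 fell with the litter as a block or without vehicle replicate 1, and 2 without vehicle replicate 3). The phosphodiesterases Pde3b and Pde8a each rose by 0.81, with errors of 0.06 and 0.08. Pde4d, a cyclic AMP-specific phosphodiesterase, rose by 0.79 ± 0.09, from 7.56, 7.85 and 7.77 to 8.39, 8.60 and 8.56. Prkar2b, a regulatory subunit of protein kinase A, rose by 0.76 ± 0.08. Pde4b, another member of the cyclic AMP-specific family, did not pass (0.15 ± 0.13, adjusted p = 0.607). Its arrays overlapped between the groups, at 9.90, 9.76 and 9.63 against 9.95, 9.76 and 10.04.

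Genes listed as targets of cyclic AMP and CREB moved in both directions. Of 41 measured targets 15 rose, 8 fell and 18 did not pass, a passing share of 56.1% against 11.0% of all genes, with a median change of 0.08. Some members, such as Mxi1, were listed because earlier results of these data named them. Crem, which encodes the CREB-family modulator that cyclic AMP induces, read 6.87, 6.82 and 7.17 with Aβ42 alone and 8.30, 8.12 and 8.36 with AE1-329 added. It rose by 1.31 ± 0.10 (adjusted p = 2.02e-06), and the groups lay far apart. Nr4a1, the gene of the orphan nuclear receptor NUR77, went from 7.77, 7.72 and 8.02 to 8.90, 8.97 and 9.0, a rise of 1.12 ± 0.08. Fos rose by 1.03 ± 0.10 and Fosl2, which encodes another AP-1 subunit, by 0.79 ± 0.06. Odc1, the first enzyme of polyamine synthesis, rose by 1.54 ± 0.19 and the angiogenic factor gene Vegfa by 0.90 ± 0.10. The early growth response factors went the other way. Egr2 fell by 1.05 ± 0.07, from 9.77, 9.71 and 9.87 to 8.83, 8.62 and 8.76, and Egr1 fell by 0.88 ± 0.08. In the AP-1, EGR and MAP kinase phosphatase list as a whole 6 of 29 rose and 11 fell, 58.6% against 11.0% of all genes. Jun rose by 0.86 ± 0.09 and Atf3, a stress-induced repressor, fell by 0.57 ± 0.08.

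Promoter sequences of RefSeq (mouse build GRCm38.p6) were held for 15563 of the 19938 genes and span 250 bases before to 50 after each start. The full CRE, TGACGTCA, was searched on both strands, as was its core TGACG, which the full element contains. The core stood in 25.0% of the 19116 promoters, in 31.0% of the 1315 promoters of genes that rose and in 28.7% of the 1058 of genes that fell. Among promoters of genes with a rise of at least 2-fold it stood in 16 of 45 (35.6%), and in 9 of 33 (27.3%) for a fall of at least 2-fold. The full element was rare, at 2.37% of all promoters, 2.74% for genes that rose and 2.27% for genes that fell. It stood in 0 of the 45 promoters with a rise of at least 2-fold and in 1 of 33 with a fall of at least 2-fold. The stretches below show what these counts rest on, with the matched letters in capitals and each sequence read 5′ to 3′ along the strand of its gene. The core of Nr4a1 nearest its start begins 40 bases before it (chr15:101266776-101266840, plus strand), that of Fos 66 bases before (chr12:85473794-85473858, plus strand), and the full element of Ch25h, a gene that fell, 61 bases before (chr19:34475172-34475239, minus strand). A match describes letters and not binding.
Nr4a1: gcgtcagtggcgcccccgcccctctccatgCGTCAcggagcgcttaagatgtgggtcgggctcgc
Fos: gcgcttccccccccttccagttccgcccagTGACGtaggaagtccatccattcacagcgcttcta
Ch25h: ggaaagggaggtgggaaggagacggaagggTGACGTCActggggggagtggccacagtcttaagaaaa

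Cytip, whose product binds cytohesins and regulates leukocyte adhesion, had the largest passing rise. Its levels were 6.10, 5.83 and 6.23 with Aβ42 alone and 9.12, 9.28 and 9.39 with AE1-329 added, a rise of 3.21 with a 95% interval of 2.98 to 3.43. The difference within the 3 litters was 3.02, 3.44 and 3.16. Carmil1, an actin regulator of the leading edge, rose by 1.83 ± 0.07, and Edil3, a secreted integrin ligand, rose from 5.81, 5.55 and 5.76 to 7.62, 7.30 and 7.65. All 3 stand in a list of 30 adhesion and migration genes because earlier results of these data named them, so its count of 8 rises and 5 falls is no separate support.

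Of the TREM family, receptors that pair with the adaptor DAP12 or resemble those that do, Trem1, Trem3 and Treml4 rose. Trem1, an amplifier of myeloid inflammation, read 6.49, 6.62 and 6.64 against 9.02, 9.07 and 9.36, a rise of 2.57 ± 0.13. Treml4, which binds dying cells, read 7.82, 7.54 and 7.70 against 10.08, 10.26 and 10.31, a rise of 2.53 ± 0.15. Trem3 rose by 1.37 ± 0.06 (adjusted p = 3.02e-08), from 6.56, 6.51 and 6.40 to 7.81, 7.83 and 7.94. None of these 3 pairs of groups overlapped, which for the genes named for the size of their change was a condition of the choice. Trem2, the lipid-sensing family member genetically tied to Alzheimer's disease, read 12.58, 12.52 and 12.60 against 12.57, 12.58 and 12.57. Its change was 0.01 with a 95% interval of -0.11 to 0.12, so a change of the size seen in the other 3 genes lies outside that interval. Clec4n, the gene of the fungal receptor dectin-2, rose by 1.11 ± 0.12. Of the 25 TREM and C-type lectin genes 6 rose, 4 fell and 15 did not pass, a passing share of 40.0% against 11.0% of all genes. Like the other lists, this one was chosen with earlier results of these data known, so its share is no separate support.

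The other leading rises were in genes of varied roles. Stat4, which transmits interleukin-12 and interferon signals, went from 5.50, 5.64 and 5.41 to 8.0, 8.03 and 8.25 (2.58 ± 0.09, adjusted p = 2.92e-09). Arg2, mitochondrial arginase, went from 9.32, 9.35 and 9.17 to 11.50, 11.37 and 11.41 (2.15 ± 0.10). Spic, which drives red pulp macrophage identity, went from 8.10, 8.57 and 8.41 to 10.38, 10.40 and 10.47 (2.06 ± 0.13). Mxi1, an antagonist of MYC, went from 8.63, 8.63 and 8.71 to 10.62, 10.60 and 10.67. Its differences within the litters were 1.99, 1.97 and 1.96, a spread far below the change. Tgm2, tissue transglutaminase, rose by 1.91 ± 0.14, the lipid transfer protein gene Pitpnc1 by 1.76 ± 0.05 and Ctla2a, a cathepsin inhibitor, by 1.81 ± 0.20. Procr, the endothelial protein C receptor, rose by 1.46 ± 0.07, the scaffold Gab1 by 1.49 ± 0.07, the amyloid precursor-binding adaptor Apbb3 by 1.54 ± 0.08 and Tarm1, an activating receptor of myeloid cells, by 1.53 ± 0.12. The urea transporter Slc14a1 rose by 1.40 ± 0.11 and Adgb, androglobin, by 1.53 ± 0.14. Of 30 genes of alternative activation and repair 10 rose and 4 fell, a passing share of 46.7% against 11.0% of all genes. Arg2, Spic, Tgm2, Edil3 and Pdgfb were placed in this list with earlier results in view. The 4 falls became 1 without replicate 3 of the combined group or replicates 1 or 3 of Aβ42 alone, and 2 without replicate 1 of the combined group, replicate 2 of Aβ42 alone or replicate 2 of AE1-329 alone.

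**Figure D2:**
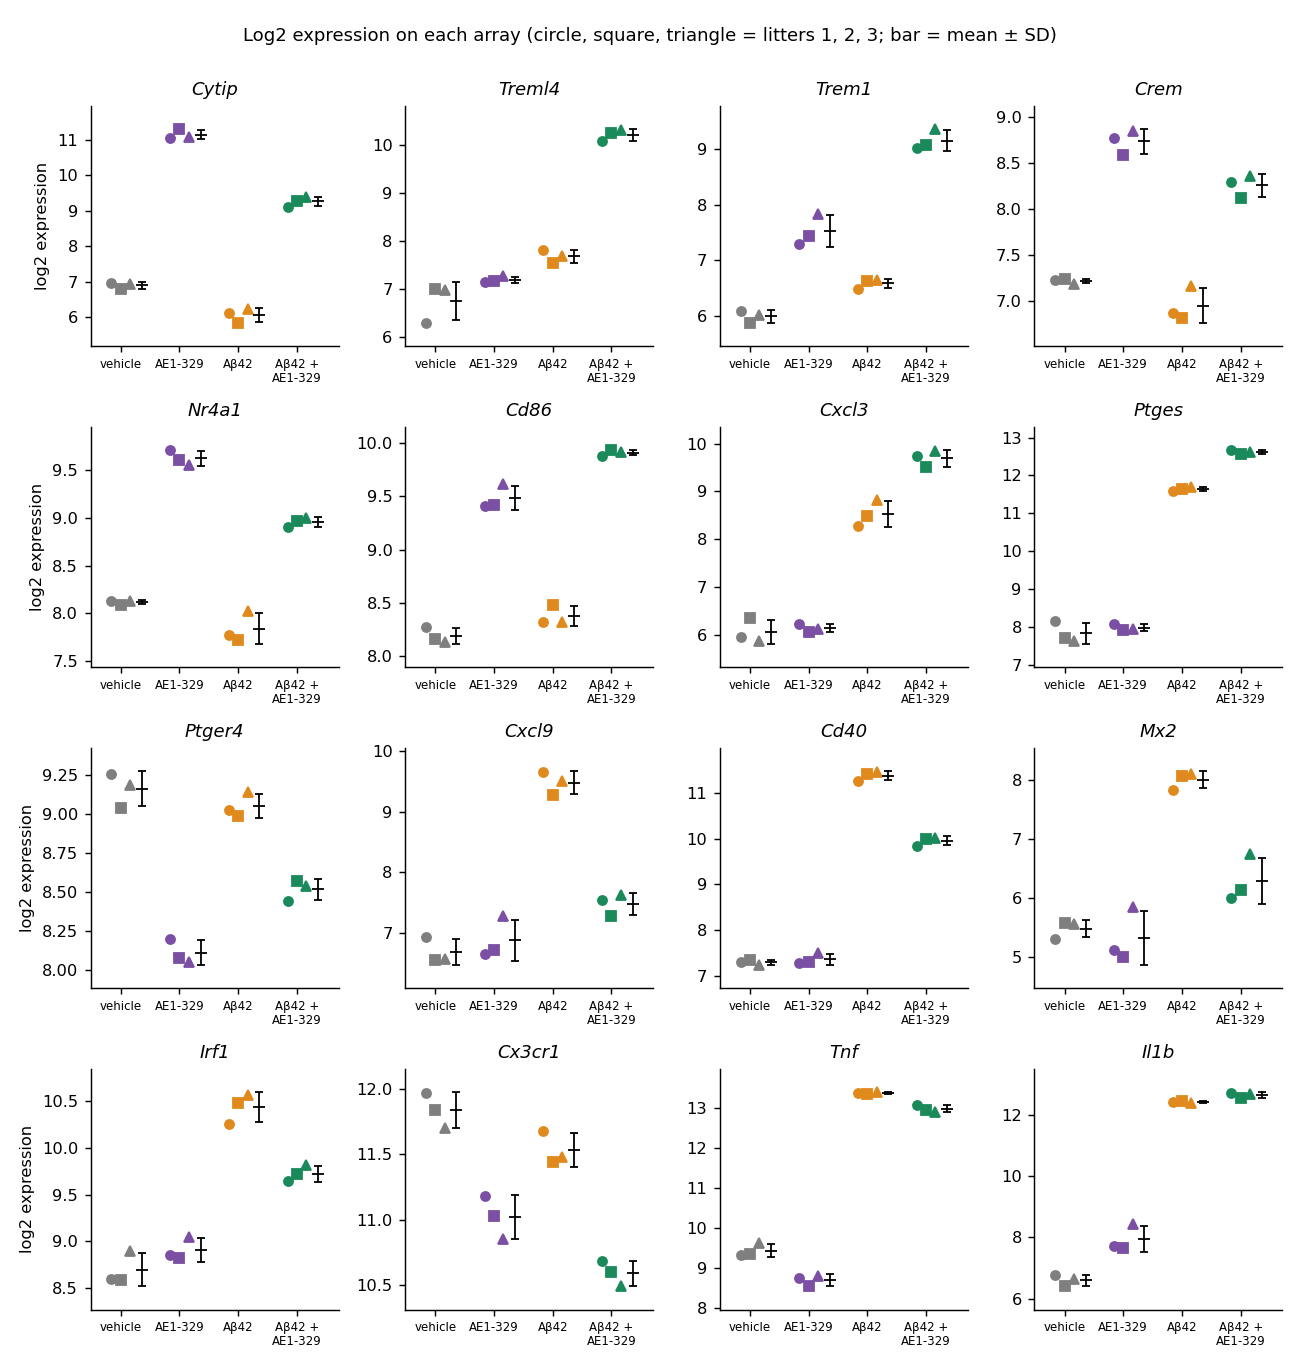
Log2 expression of 16 genes on each of the 12 arrays, by group on the x axis, with the shape of a point giving its litter and the bar the mean ± SD of 3 arrays. With AE1-329 on top of Aβ42, the levels of Cytip, Treml4, Trem1, Crem, Nr4a1, Cd86, Cxcl3 and Ptges lie above those of Aβ42 alone and the levels of Ptger4, Cxcl9, Cd40, Mx2, Irf1, Cx3cr1 and Tnf lie below. The levels of Il1b also lie above, but its change did not pass with the 12-array fit.

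Cxcl9, a chemokine that draws in T cells and is induced by interferon, had the largest passing fall. Its levels were 9.65, 9.27 and 9.50 with Aβ42 alone and 7.54, 7.28 and 7.62 with AE1-329 added, against a vehicle mean of 6.69. The change was -1.99 with a 95% interval of -2.34 to -1.64. Cd40, the costimulatory receptor through which T cells activate myeloid cells, read 11.26, 11.41 and 11.45 against 9.84, 9.99 and 10.02. The difference was -1.43 in each of the 3 litters, and the vehicle mean was 7.29. Adamts4, a protease of brain proteoglycans, fell by 1.52 ± 0.14, from 10.37, 10.31 and 10.33 to 9.04, 8.73 and 8.67. Pdgfb, a platelet-derived growth factor chain, fell by 1.41 ± 0.11, Edn1, the vasoconstrictor endothelin-1, by 1.31 ± 0.13, and Ch25h, which makes the antiviral oxysterol 25-hydroxycholesterol, by 1.34 ± 0.15. The exchange factor Rasgrp3 fell by 1.32 ± 0.09, the cell cycle kinase Cdk6 by 1.27 ± 0.05, the motor protein Myo1e by 1.23 ± 0.06 and the cytoskeletal gene Nes by 1.16 ± 0.11. Slamf9, a receptor of the SLAM family, fell by 1.19 ± 0.07 and Shisa3 by 1.23 ± 0.08.

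Type I interferons act in an autocrine loop in which a sensor induces the ligand, and the ligand acts through its receptor to drive the interferon-stimulated effectors through the interferon-stimulated response element (ISRE). The ligand gene Ifnb1 did not pass, at 5.91, 5.51 and 5.70 against 5.68, 5.78 and 5.62, and its 95% interval was -0.21 to 0.18. Its vehicle mean was 5.60, and these levels lay below the array medians of 6.97 to 7.05. With signal over background unknown, whether this probe set detected the ligand transcript was not tested. Upstream, the RNA sensor Ifih1 fell by 0.87 ± 0.11, from 10.59, 10.66 and 10.69 to 9.67, 9.78 and 9.90. The endosomal RNA receptor Tlr7 fell by 0.68 ± 0.06 and the adaptor Ticam1 by 0.53 ± 0.06. The transcription factor Irf1 read 10.25, 10.48 and 10.56 against 9.64, 9.72 and 9.81, a fall of 0.71 ± 0.10 with no overlap. Irf7, which amplifies the loop, read 9.84, 9.88 and 10.19 against 9.09, 9.24 and 9.66. It did not pass (-0.64 ± 0.32, adjusted p = 0.287) but did so with the litter as a block (adjusted p = 0.0276) and with only the 6 arrays in the fit. Of 36 genes of interferon production and signalling 12 fell, 4 rose, Stat4 among them, 20 were short of the threshold, and the median was -0.13. The passing share was 44.4% against 11.0% of all genes.

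The type I effectors had the largest median change in size among the 28 lists. Of 43 measured type I effectors 25 fell by limma (5.04% of all genes did), 0 rose and 18 were short of the threshold. Over the 20 alternatives the number that fell ran from 18 to 37, and 0 rose in each. The median change was -0.66 beside -0.02 for all genes (33 had an unadjusted p under 0.05, all of them lower). In 34 of the 43 all 3 combined arrays lay below all 3 of Aβ42 alone, against 16.1% of all genes. The median within the litters was -0.65, -0.71 and -0.62. The mean level of the list was 10.00, 10.14 and 10.27 in litters 1, 2 and 3 with Aβ42 alone and 9.28, 9.41 and 9.69 with AE1-329 added. In vehicle it was 8.56, 8.76 and 9.02, so litter 3 read highest and litter 1 lowest in these groups, and the combined arrays stayed above those of vehicle. With AE1-329 alone the level was 8.55, 8.75 and 9.28.

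Mx2, an antiviral GTPase, read 7.84, 8.07 and 8.11 against 6.00, 6.13 and 6.74, a fall of 1.72 ± 0.21 (adjusted p = 0.00016). Its relative Mx1 read 8.46, 8.77 and 9.13 against 6.84, 6.72 and 7.76, a fall of 1.68 ± 0.37 (adjusted p = 0.0102). That call was lost without replicate 2 of the combined group (0.0505) or replicate 3 of Aβ42 alone (0.0506), and over all alternatives the adjusted p of Mx1 began at 2.15e-05. Usp18, the enzyme that removes ISG15 and damps receptor signalling, read 11.04, 11.20 and 11.39 against 9.32, 9.66 and 10.27 (-1.46 ± 0.35, adjusted p = 0.0172). It did not pass without replicates 1 or 2 of the combined group or replicates 2 or 3 of Aβ42 alone (up to 0.0826). In each of the 3 genes litter 3 of the combined group was the highest of its group. Trim21, an antibody receptor of the cytosol, fell by 0.76 ± 0.10, Parp12 by 0.66 ± 0.08, the ubiquitin ligase Dtx3l by 0.63 ± 0.09 and the nuclear protein gene Phf11d by 1.22 ± 0.25. Tnfsf10, the death ligand TRAIL, which interferon induces, fell by 1.23 ± 0.28, and its adjusted p of 0.0121 rose to 0.0614 and 0.0624 without replicate 1 of the combined group and replicate 3 of Aβ42 alone.

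Of 20 genes that interferon-gamma induces, mostly GTPases and genes of peptide presentation, 8 fell by limma, 0 rose and 12 were short of the threshold. The passing share was 40.0% against 11.0% of all genes. The median was -0.27, and 15 members had an unadjusted p under 0.05, all lower. Without replicates 1 or 2 of the combined group 3 and 5 fell, and 4 fell without either replicate 2 or replicate 3 of Aβ42 alone. The number was 12 without replicate 3 of AE1-329 alone and with the litter as a block, and 15 with only the 6 arrays in the fit. Irgm1, an immunity-related GTPase, read 10.44, 10.61 and 10.85 against 9.27, 9.28 and 9.88 (-1.16 ± 0.18). Gbp3, a guanylate-binding protein, read 9.08, 9.56 and 9.56 against 8.12, 8.31 and 8.32 (-1.15 ± 0.21). Neither pair of groups overlapped, which for Irgm1, named for the size of its change, was a condition of the choice.

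The ISRE was searched on both strands as a pair of GAAA runs with any bases NN between them. It stood in 3.27% of all promoters, in 5.77% of those of genes that fell and in 3.12% of those of genes that rose. It stood in 7 of 33 promoters (21.2%) of genes with a fall of at least 2-fold and in 9 of 26 (34.6%) of the effectors that fell. In the 45 promoters of genes with a rise of at least 2-fold it was found in 4 (8.89%). With the 250 bases before the start alone the shares were 2.86% of all promoters, 21.2% of those with a fall of at least 2-fold and 23.1% of the effectors that fell. The effectors are listed as interferon-stimulated genes, so a high ISRE share among them comes with the list. No share was taken for effectors that did not fall, and the genes with a fall of at least 2-fold include effectors such as Mx1 and Mx2. Shown are the site of Irgm1 that begins 30 bases before the start (chr11:48871421-48871480, minus strand), those of Gbp3 at 45 bases (chr3:142559969-142560038, plus strand) and of Ifit3b at 154 bases (chr19:34607773-34607842, plus strand), and the site of Stat4, a gene that rose, at 97 bases (chr1:52008113-52008182, plus strand). Ifit3b, of a family that binds viral RNA, fell by 1.33 ± 0.39 (adjusted p = 0.0475), a call that was lost without any 1 of 7 arrays, namely replicates 1 or 2 of the combined group, each of Aβ42 alone, and replicate 2 of AE1-329 alone or of vehicle, and under 3 other alternatives (0.0543 to 0.191). Ifit3b belongs to a family of near-identical copies that a probe set may not tell apart.
Irgm1: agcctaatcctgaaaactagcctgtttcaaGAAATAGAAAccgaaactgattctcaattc
Gbp3: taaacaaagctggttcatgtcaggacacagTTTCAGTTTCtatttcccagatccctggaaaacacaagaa
Ifit3b: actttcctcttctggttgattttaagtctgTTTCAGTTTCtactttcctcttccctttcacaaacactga
Stat4: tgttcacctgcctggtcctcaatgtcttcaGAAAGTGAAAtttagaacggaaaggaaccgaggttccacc

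**Figure D3:**
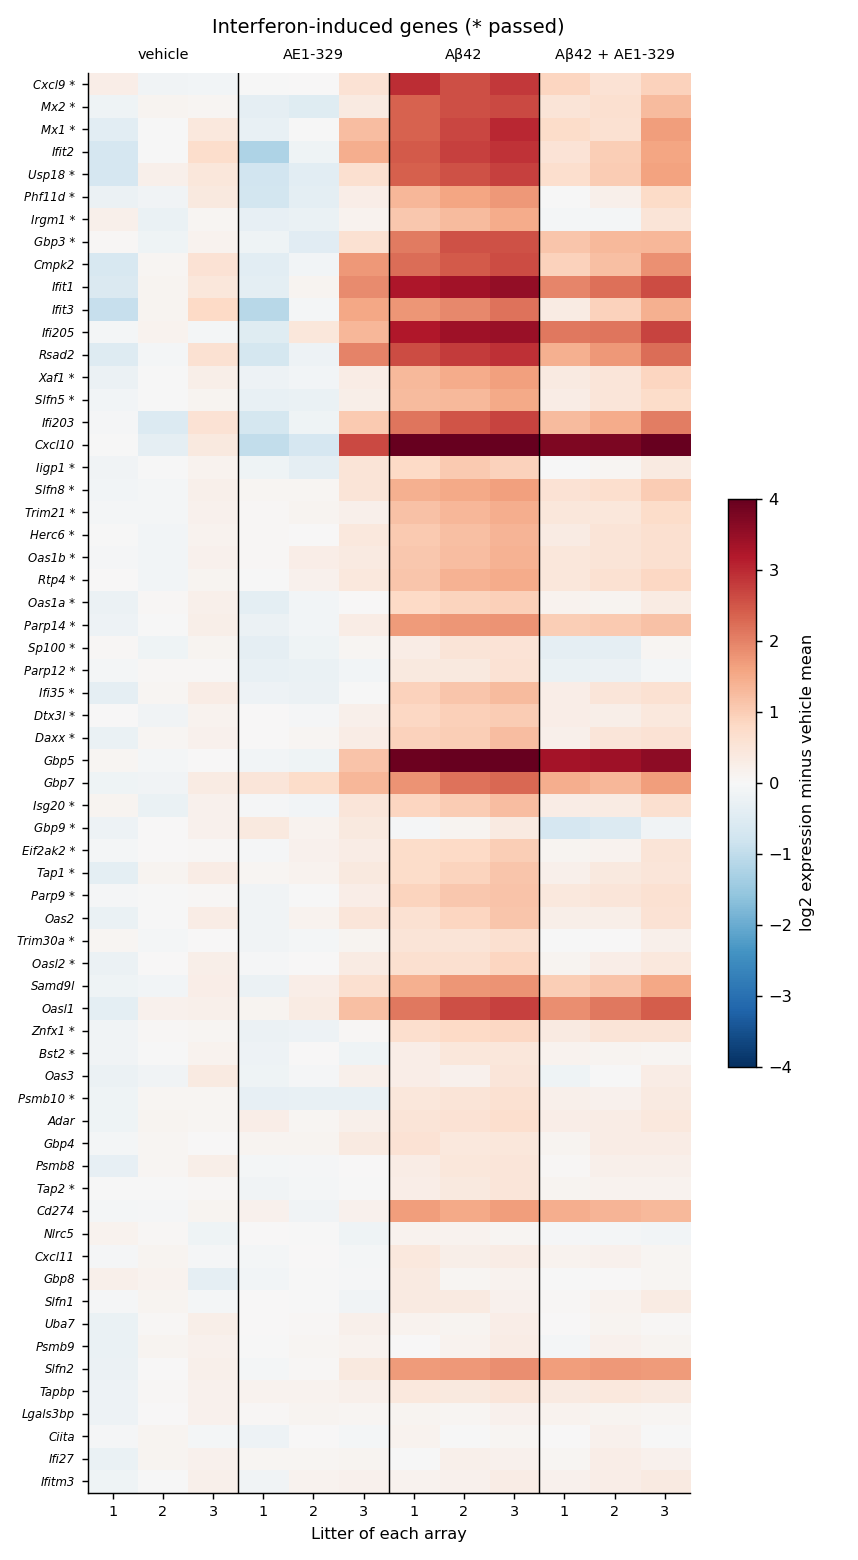
Rows are the 63 measured genes of the 2 interferon effector lists and columns the 12 arrays by group and litter. Colour is log2 expression minus the mean of that gene in vehicle, limited to 4 in either direction, so higher values share the darkest red, and an asterisk marks genes that passed when AE1-329 was added to Aβ42. Most rows are paler with AE1-329 than with Aβ42 alone, and litter 3 is the darkest of the combined arrays in many rows.

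Of 31 cytokine genes 3 rose (5.99% of all genes did), 6 fell (5.04% of all genes did) and 22 did not pass. Tnf, the gene of tumour necrosis factor, read 13.39, 13.36 and 13.40 against 13.09, 12.97 and 12.92, a fall of 0.39 ± 0.09 (adjusted p = 0.01). Without replicate 3 of the combined group Tnf did not pass (0.0511, within 0.00224 to 0.0511 over all alternatives). Il6 read 8.46, 8.75 and 8.73 against 8.98, 8.98 and 9.25 and rose by 0.42 ± 0.12 (adjusted p = 0.0375), a call that was lost without any 1 of the 6 arrays (up to 0.167). Il18, an inflammasome-processed cytokine, fell by 1.05 ± 0.12, from 8.67, 8.88 and 8.97 to 7.70, 7.71 and 7.96. Il27, a regulator of T-cell responses, fell by 0.89 ± 0.06, from 9.26, 9.23 and 9.41 to 8.50, 8.36 and 8.37. Il1rn, which encodes the interleukin-1 receptor antagonist, rose by 0.81 ± 0.12, from 9.62, 9.80 and 9.99 to 10.48, 10.66 and 10.71, and the granulocyte growth factor Csf3 rose by 0.38 ± 0.08. Il1b read 12.44, 12.46 and 12.39 against 12.74, 12.57 and 12.68 without overlap, yet did not pass with the 12-array fit (0.23 ± 0.16, adjusted p = 0.504) and passed with the 6 arrays alone (0.0289). Il10, the main anti-inflammatory cytokine, did not pass (0.23 ± 0.14, adjusted p = 0.442), with overlapping levels of 5.32, 5.34 and 5.45 against 5.57, 5.23 and 5.99. It passed in no alternative (lowest adjusted p 0.0557). Its levels lay below the array medians, and whether its probe set detected the transcript was not tested.

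Chemokine genes changed in both directions. Of 14 CC chemokines, which mainly recruit monocytes, 4 fell and 0 rose by limma, a passing share of 28.6% against 11.0%. In this list 1 had an unadjusted p under 0.05 as higher, and 1 rose without replicate 3 of the combined group or replicate 2 of AE1-329 alone. Ccl12 read 7.19, 7.32 and 7.43 against 5.79, 5.76 and 5.99, a fall of 1.46 ± 0.10 to near the vehicle mean of 5.83. Ccl7 fell by 0.96 ± 0.19, Ccl2 by 0.82 ± 0.16 and Ccl4 by 0.72 ± 0.10. Of 14 CXC and other chemokines 4 rose and 1, Cxcl9, fell, with 4 each way at an unadjusted p under 0.05. The passing share was 35.7% against 11.0% of all genes. Without replicate 3 of the combined group 1 rose, without replicates 2 or 3 of Aβ42 alone 2 did, and without replicate 3 of AE1-329 alone 2 fell. Cxcl3, a neutrophil attractant, read 8.28, 8.49 and 8.82 against 9.73, 9.50 and 9.84, a rise of 1.16 ± 0.14 to above the level of Aβ42 alone in every array. Among 15 chemoattractant receptors Cxcr4 rose by 0.80 ± 0.05 and Ccr1 by 0.75 ± 0.11, while Cx3cr1 fell from 11.68, 11.44 and 11.48 to 10.68, 10.60 and 10.49.

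NF-kB is the transcription factor through which pattern recognition receptors drive most inflammatory genes. Of 29 genes of its subunits, inhibitors and feedback 6 rose and 4 fell, a passing share of 34.5% against 11.0% of all genes. The median was 0.01 (2 fell without any 1 of replicates 2 or 3 of either group). The subunit Rel fell by 0.43 ± 0.06, from 12.13, 12.09 and 12.03 to 11.73, 11.54 and 11.70. The inhibitor gene Nfkbie rose by 0.49 ± 0.08 and the related gene Bcl3 by 0.54 ± 0.08. Irak3, the kinase-dead brake on Toll-like receptor signalling, rose by 0.43 ± 0.06. Of 15 genes of the phagocyte oxidase and nitric oxide synthases 0 rose and 1 fell by limma, a share of 6.67%, with 3 at an unadjusted p under 0.05. The one was Nos2, inducible nitric oxide synthase, at 8.09, 8.26 and 8.40 against 7.91, 8.0 and 7.95 (-0.30 ± 0.08, adjusted p = 0.0229). That call was lost without replicates 1 or 3 of the combined group or replicates 2 or 3 of Aβ42 alone (up to 0.108). Cybb, the catalytic oxidase subunit, overlapped between the groups (13.18, 13.15 and 13.07 against 13.12, 13.03 and 13.09), with a 95% interval of -0.18 to 0.06. Of 19 antioxidant targets of NRF2 5 rose and 0 fell, a passing share of 26.3% against 11.0% of all genes. Their median was 0.08, and 6 had an unadjusted p under 0.05. Gclc, which limits glutathione synthesis, rose by 0.46 ± 0.06 and Srxn1, sulfiredoxin, by 0.27 ± 0.05. Only 2 of the 19 rose without replicate 1 of the combined group or replicate 3 of Aβ42 alone, and 3 without replicate 2 of Aβ42 alone.

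Costimulatory molecules moved in opposite directions. Of 20 antigen presentation and costimulation genes 4 rose (5.99% of all genes did), 2 fell (5.04% did) and 14 did not pass. The median was -0.03. Cd86, a ligand of CD28, read 8.32, 8.48 and 8.32 against 9.88, 9.93 and 9.91, a rise of 1.53 ± 0.07. Cd80, the other ligand, read 8.48, 8.54 and 8.61 against 9.77, 9.74 and 9.79 (1.23 ± 0.12). Both lay clear of the Aβ42 arrays, which for Cd86, named for the size of its change, was a condition of the choice. By contrast Cd40 fell as above. Cd83, a surface marker of mature antigen-presenting cells, fell by 0.44 ± 0.05, from 12.41, 12.35 and 12.44 to 11.90, 11.99 and 11.97.

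Receptors that take up debris or bind lipids changed individually. Of 29 scavenger, Fc and efferocytosis receptors 4 rose and 2 fell, a passing share of 20.7% against 11.0% of all genes, with a median of 0.02. Only 3 of the 29 lay below the median level, and among genes above it more than 11.0% passed. The 4 became 2 without replicate 1 of the combined group or replicate 3 of Aβ42 alone, and the 2 became 4 without vehicle replicate 1. Axl, a receptor kinase that tethers dying cells, fell by 0.73 ± 0.07, and Olr1, the scavenger receptor LOX-1, fell by 0.92 ± 0.13. The endotoxin receptor Tlr4 rose by 0.77 ± 0.09 and its coreceptor Cd14 by 0.32 ± 0.07. Of 23 genes of amyloid-degrading proteases and clearance 2 rose and 3 fell, a passing share of 21.7% against 11.0% of all genes. Ece1, an endothelin-converting enzyme that also cleaves Aβ, rose by 1.00 ± 0.06, from 9.17, 9.29 and 9.17 to 10.27, 10.18 and 10.17. Its relative Ece2 fell by 0.53 ± 0.09 and the collagenase Mmp13 fell by 0.87 ± 0.12. Abca1, the cholesterol exporter that lipidates apolipoprotein E, rose by 0.77 ± 0.05, from 11.49, 11.49 and 11.53 to 12.27, 12.29 and 12.25.

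Genes that mark resting microglia fell more often than they rose. Of 25 homeostatic genes 7 fell (5.04% of all genes did) and 1, Jun, rose (5.99% did), with a median of -0.06. Without replicate 3 of the combined group 4 fell, and without vehicle replicate 1 a second gene rose. Mef2c, a transcription factor of the resting state, fell by 0.59 ± 0.06 and Tgfbr2, a receptor of the transforming growth factor beta signal that maintains it, by 0.53 ± 0.07. The purinergic receptor gene P2ry12 read 7.80, 7.71 and 7.72 against 7.55, 7.53 and 7.50 and did not pass (-0.22 ± 0.11, adjusted p = 0.291). It passed with the 6 arrays alone and without vehicle replicate 1 (lowest adjusted p 0.0168). Of 25 genes of the disease-associated state, a programme that microglia take on near plaques, 7 fell and 0 rose by limma, with a median of -0.11 and 9 at an unadjusted p under 0.05, all lower. They included Axl, Ch25h, the lipase gene Lpl (-0.43 ± 0.05) and the pyrophosphate transporter gene Ank (-0.46 ± 0.08).

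Of 23 genes of sterol and fatty acid synthesis, which SREBP factors control, 8 rose and 0 fell, a passing share of 34.8% against 11.0%. The median was 0.24, and 13 had an unadjusted p under 0.05, all higher. The number that rose was 5 without replicate 1 of the combined group or replicates 2 or 3 of Aβ42 alone, and 13 without vehicle replicate 1. Mvd, a decarboxylase of the mevalonate pathway, rose by 0.64 ± 0.08, from 9.09, 8.99 and 8.88 to 9.53, 9.73 and 9.61. Hmgcs1, its first committed synthase, rose by 0.44 ± 0.06, the sterol oxidase gene Msmo1 by 0.31 ± 0.06 and the desaturase gene Scd2 by 0.47 ± 0.09. In 16 of the 23 genes all combined arrays lay above all arrays of Aβ42 alone, against 15.9% of all genes. Of 18 genes of LXR, oxysterols and lipid efflux 2 rose, Abca1 and Scd2, and 3 fell (4 rose without vehicle replicate 1). Their passing share was 27.8% against 11.0% of all genes.

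Of 26 genes of glycolysis and the hypoxia response 8 rose and 1 fell, a passing share of 34.6% against 11.0% of all genes. The median was 0.16 (13 rose and 2 fell without vehicle replicate 1). Pfkfb3, which makes the activator of phosphofructokinase, read 9.22, 9.26 and 9.27 against 10.23, 10.17 and 10.28, a rise of 0.97 ± 0.06. Hif1a, the oxygen-sensing transcription factor, rose by 0.61 ± 0.06, and Bnip3, a hypoxia-induced gene of mitophagy, by 0.88 ± 0.10. Of 24 genes of the unfolded protein response and the ATF4 pathway 6 fell and 1 rose, a passing share of 29.2% against 11.0%. The number that fell was 3 without replicate 3 of the combined group or replicates 1 or 3 of Aβ42 alone. The 1 rise was lost without any 1 of the 6 arrays or replicates 1 or 2 of AE1-329 alone. Herpud1, a component of endoplasmic reticulum degradation, fell by 0.87 ± 0.07, from 11.30, 11.33 and 11.39 to 10.57, 10.48 and 10.36, and the amino acid transporter gene Slc7a5 fell by 0.56 ± 0.07. Of 17 complement genes 2 rose, a share of 11.8% beside 11.0% of all genes, with 0 or 1 rising when any 1 of the 6 arrays was left out.

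Of 37 cell cycle genes 6 rose and 4 fell, a passing share of 27.0% against 11.0% of all genes. The median was 0.17, and with the litter as a block 16 rose. The number that rose was 2 to 3 without replicates 2 or 3 of the combined group or replicates 1 or 2 of Aβ42 alone. The members with the smallest p were regulators and did not all promote division. Besides Mxi1 and Cdk6, Cdkn1b, which encodes the inhibitor p27, rose by 0.65 ± 0.07 and Myc fell by 0.57 ± 0.09.

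**Figure D4:**
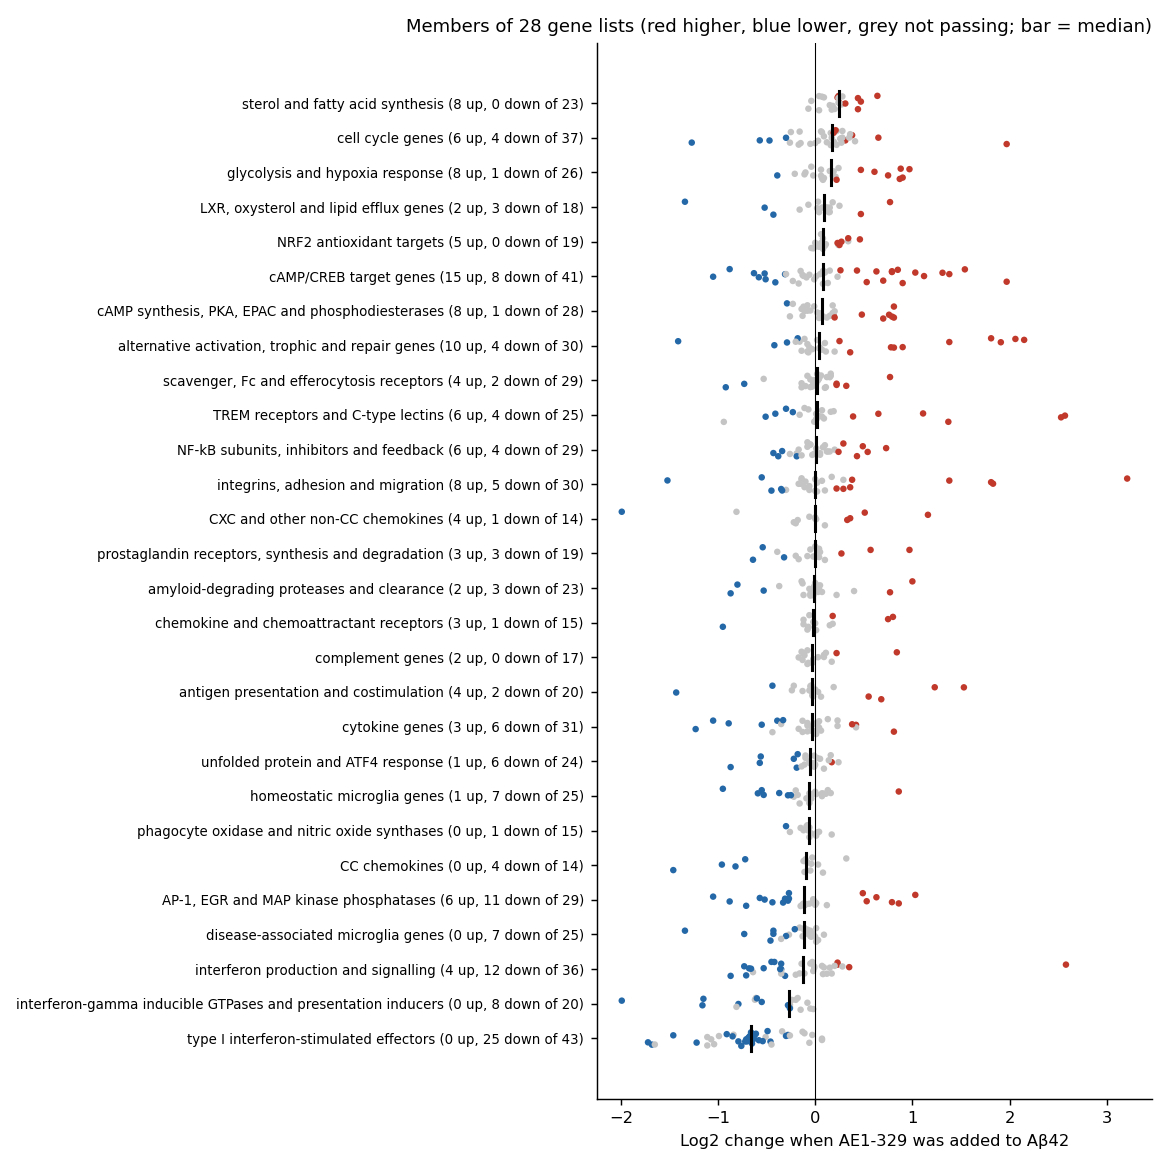
Each point is 1 measured gene of 28 lists, placed by its log2 change when AE1-329 was added to Aβ42, with red for genes that rose, blue for genes that fell and grey for genes that did not pass. The black bar is the median of the list, which runs from -0.66 for type I interferon effectors to 0.24 for sterol and fatty acid synthesis.

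Whether AE1-329 acted in the same way without Aβ42 was tested as the interaction, the change with Aβ42 minus the change without it. It passed for 389 genes (1.95%), higher for 206 and lower for 183, and with the litter as a block for 344 and 333. The number higher fell to between 119 and 137 without replicates 1 or 3 of the combined group, replicates 2 or 3 of Aβ42 alone or replicate 2 of AE1-329 alone, and rose to 321 without vehicle replicate 1. The number lower was 118 to 120 without replicate 2 of the combined group or replicates 2 or 3 of Aβ42 alone. Of the 1194 genes that rose with AE1-329 in Aβ42-treated cells 163 passed the interaction, as did 114 of the 1005 that fell. The interaction contains the change by which these genes were chosen, so these counts are not independent of that choice. The comparisons with and without Aβ42 share no array. AE1-329 alone changed 2026 genes (10.2%), of which 939 rose (4.71%) and 1087 fell (5.45%). In both comparisons 1099 genes passed, out of 2199 here and out of 2026 with AE1-329 alone. Of these 1064 moved the same way and 35 did not. Over all genes the changes correlated at r = 0.57, as a description across genes, which are not independent replicates.

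Genes that rose in both settings included Crem, Nr4a1, Fos, Cd86, Slc14a1 and Clec4n, whose interaction did not pass in the reported fit or in any alternative. For Cd86 the change was 1.53 with Aβ42 and 1.29 without it. Cytip rose less with Aβ42 than without it, by 3.21 against 4.26, an interaction of -1.05 ± 0.15 (adjusted p = 0.00224). Cd14 showed the same order, with 0.32 against 1.12 (interaction -0.81 ± 0.10). Trem1, Trem3 and Treml4 rose more with Aβ42, whereas the interaction of Trem2 did not pass. Treml4 changed by 2.53 with Aβ42 and by 0.44, without passing, in its absence (interaction 2.10 ± 0.21, adjusted p = 0.000249). Trem3 changed by 1.37 against 0.20 (interaction 1.17 ± 0.09). Stat4 rose by 2.58 against 1.17 (interaction 1.41 ± 0.12), and Arg2 by 2.15 against 0.64 (1.51 ± 0.14).

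Some genes moved in opposite directions. Pfkfb3 rose with Aβ42 and fell by 0.90 without it, from a vehicle mean of 9.92 to 9.02 (interaction 1.87 ± 0.09, adjusted p = 6.17e-07). Adgb rose with Aβ42 and fell by 0.57 without it (interaction 2.10 ± 0.19). Rel and Cd83 fell with Aβ42 and rose by 0.43 and 0.30 without it (interactions -0.86 ± 0.09 and -0.74 ± 0.07).

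Among genes that fell, Cd40 changed by 0.06 and Cxcl9 by 0.19 with AE1-329 alone, neither passing, and their interactions were -1.49 ± 0.11 (adjusted p = 3.69e-05) and -2.18 ± 0.23 (0.000286). Both genes lay lower in vehicle, at means of 7.29 and 6.69. Herpud1, Il27 and Shisa3 likewise passed the interaction (-0.81 ± 0.09, -0.88 ± 0.09 and -1.01 ± 0.12) and did not pass with AE1-329 alone. Of the 43 type I effectors 0 passed either way with AE1-329 alone by limma (2 at an unadjusted p under 0.05), and 9 passed the interaction, all lower, or 31 with the litter as a block. The 9 became 4 without replicates 1 or 2 of the combined group or replicate 2 of Aβ42 alone, 3 without replicate 3 of Aβ42 alone and 6 without replicate 3 of AE1-329 alone, the array with the highest level of this list in its group. Others fell alike in both settings. Ch25h changed by -1.34 with Aβ42 and -1.45 without, Egr1 by -0.88 and -0.78, Cdk6 by -1.27 and -1.06 and Cx3cr1 by -0.95 and -0.82, and none of their interactions passed, in the reported fit or in any alternative.

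**Figure D5:**
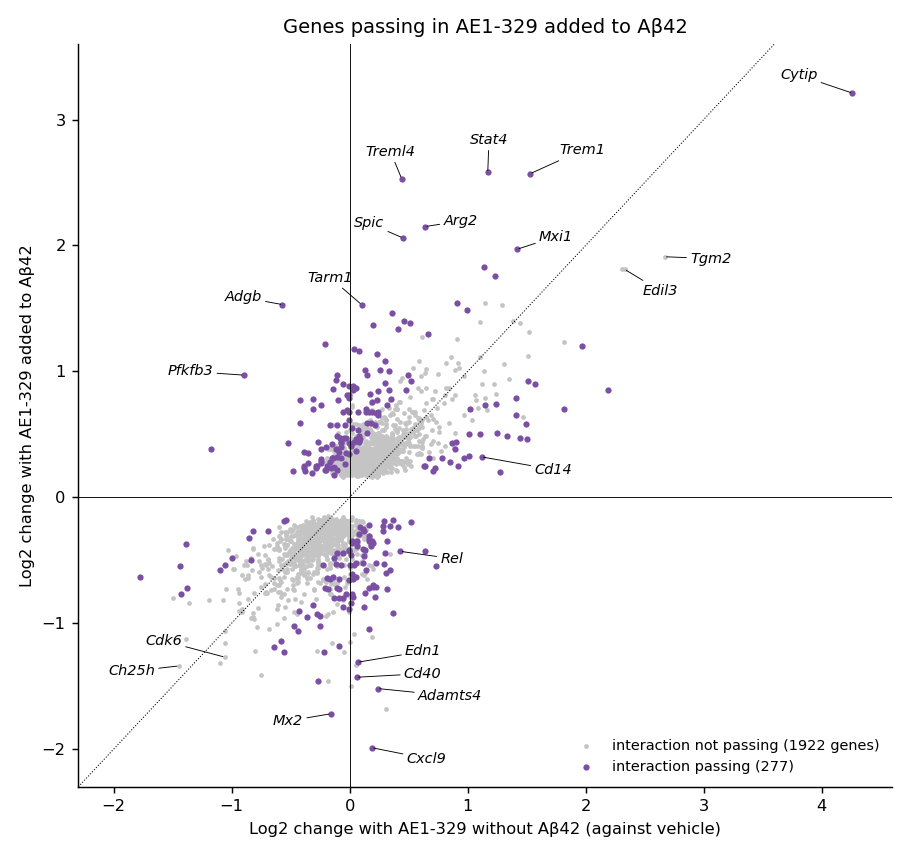
Each point is 1 of the 2199 genes that passed when AE1-329 was added to Aβ42, with the log2 change of AE1-329 without Aβ42 on the x axis and with Aβ42 on the y axis. Purple marks the 277 genes whose interaction passed and the dotted line marks equal change, so Cytip lies below it and Treml4, Spic, Arg2 and Stat4 above it, while Cxcl9 and Cd40 lie near 0 on the x axis.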

How the data were processed

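RNA of 12 microglial cultures was measured on Affymetrix Mouse Gene 1.0 ST arrays, 1 array per culture. The deposited values are log2 expression per probe set. Per the submitters' processing notes the tools were RMA and Partek 6.5, with no role or filter stated, and scanner files were not used. RMA usually aligns arrays at the probe level, which makes changes relative to the bulk of genes. Of 35556 probe sets 21789 carry 1 gene symbol, and the brightest per gene was kept for the 999 genes with several, giving 19938 genes named through the platform annotation and RefSeq (21698 probe sets matched by gene ID). Group means of all 12 arrays were fitted with limma 3.58.1 in R 4.3.3 (lmFit, eBayes), adjusted by Benjamini-Hochberg, threshold 0.05, and the fit was tested on simulated data. The litter block and 19 other settings were alternatives. Same-numbered arrays are paired by litter per the labels' design text, and over 18 pairs the mean correlation of their deviations from the group mean was 0.33 (17 above 0.1, lowest 0.00435). The number of arrays limits the precision.

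The members and lists were chosen with earlier results of these data known, so the count or share of a list is no separate support. Named genes are the 20 highest and 20 lowest changes among passing genes whose groups did not overlap and whose litters all moved the same way, the 4 members of each list with the smallest p (and those with the largest change where fewer passed), a set followed throughout (such as Ptger4, Tnf, Trem2 and Ifnb1) and 5 each way for the interaction, predicted genes aside. The text names a part of these. Of 762 listed genes 711 were measured.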

Additional observations from a re-analysis of the deposited data

Results flagged for a closer look

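For 53 of the named genes the change with AE1-329 differed between cells with and without Aβ42 by limma's interaction test (adjusted p at most 0.05). Each value below is the log2 change with Aβ42 minus the log2 change without it, with 3 arrays in each of the 4 groups.

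In the EP4 and cyclic AMP genes the interaction was 0.52 for Ptger4, 0.68 for Ptger2, 0.82 for Ptges and 0.56 for Prkar2b, and -0.62 for Pde4d. Among the TREM genes and leading rises it was 2.10 for Treml4 and for Adgb, 1.17 for Trem3, 1.04 for Trem1, 1.43 for Tarm1, 1.60 for Spic, 1.51 for Arg2, 1.41 for Stat4 and 1.10 for Procr. Smaller positive values were 0.69 for Carmil1, 0.63 for Apbb3, 0.55 for Mxi1, 0.53 for Pitpnc1 and 0.51 for Gab1. Cytip was the exception among the leading rises named here, at -1.05. The leading rises were chosen by the size of their change with Aβ42, which is a part of the interaction. That choice favours values above 0, so their shared sign is no separate result.

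Metabolic and stress genes gave 1.87 for Pfkfb3, 0.89 for Bnip3, 0.62 for Hif1a, 1.01 for Jun and 0.37 for Gclc. The lipid synthesis genes gave 0.52 for Hmgcs1 and for Scd2 and 0.38 for Msmo1. Herpud1 gave -0.81.

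Of the cytokine and chemokine genes Cxcl3 (1.08), Il1rn (0.84) and Ccl4 (0.66) were above 0. Below 0 were Cxcl9 (-2.18), Il18 (-1.21), Ccl12 (-1.19), Il1b (-1.12) and Il27 (-0.88). Stat4, given above, also belongs to the interferon signalling list. The other interferon genes among the 53 were below 0, at -1.56 for Mx2, -0.99 for Ifih1, -0.91 for Irf1, -0.89 for Trim21 and -0.67 for Dtx3l.

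Among surface receptors and markers the values were -1.49 for Cd40, -1.28 for Olr1, -0.81 for Cd14, -0.74 for Cd83, -0.64 for Axl and -0.55 for Slamf9. The NF-kB subunit gene Rel gave -0.86. The remaining falls gave -1.76 for Adamts4, -1.39 for Edn1, -1.01 for Shisa3 and -0.67 for Myo1e.

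Of the 75 named genes that did not pass the interaction, 27 passed it in at least 1 alternative. Of the 53 calls 41 held in every alternative. The other 12 were lost in at least 1, those of Ccl4, Cxcl3, Gab1, Gclc, Il1b, Il1rn, Msmo1, Mx2, Pde4d, Prkar2b, Ptger4 and Scd2. All but Prkar2b and Ptger4 were lost with p-values adjusted over all probe sets, and for Cxcl3 that was the only alternative (0.0537). The call of Scd2 was lost without any 1 array other than vehicle replicate 3 (0.0532 to 0.123), that of Il1b without replicates 2 or 3 of the combined group or any 1 array of Aβ42 alone (0.0548 to 0.0779), and that of Mx2 without replicates 1 or 2 of the combined group or replicates 2 or 3 of Aβ42 alone (0.0532 to 0.0632). Ptger4 lost its call without replicate 2 of the combined group, of Aβ42 alone or of AE1-329 alone (0.052 to 0.0563).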

How the results depend on the processing

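The number of genes that rose (1194) lay between 797 and 1688 and the number that fell (1005) between 669 and 1405 when each replicate was left out in turn, with 669 without replicate 3 of Aβ42 alone. With the litter as a replicate block 1477 rose and 1206 fell. The 2-fold counts ranged over all 20 alternatives from 44 to 54 (50 as reported) and from 25 to 42 (36 as reported). The interaction was higher for 206 genes and lower for 183, for 120 and 110 with p-values adjusted over all probe sets, and for 344 and 333 with the replicate block. Leaving out each replicate in turn gave 119 to 321 and 118 to 236. The cause of these differences was not tested. Of 128 named genes 119 passed, 108 of them in every alternative, and no called value changed sign. The 11 that lost a call in at least 1 alternative were Ifit3b, Il6, Itgam, Mx1, Nos2, Pf4, Slc1a3, Cspg4, Tnf, Tnfsf10 and Usp18. Of the 9 that did not pass, Irf7 passed with the replicate block, and Il1b, Ptgs2, P2ry12 and Irf7 with the 6 arrays alone. With the block the interaction gained calls among interferon genes, so the 9 type I effectors became 31. The number of arrays limits the precision, and signal over background is unknown.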
